A study of Mus musculus with 4 samples.

Results

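The genes examined were 10 immediate early transcription factor genes of mouse natural killer (NK) cells: Fos, Fosb, Fosl2, Jun, Junb, Jund, Batf, Atf3, Egr1 and Nr4a1. They were taken by symbol, and their m6A peaks were the distinct peaks that carried the Ensembl identifier of 1 of the 10 genes. Of 20727 distinct peaks in 12351 genes, 29 belonged to them. A further 3 peaks overlapped Jun or Jund but were assigned to an antisense gene, Junos for 1 and Gm11175 for 2. These are named as such wherever they appear.

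The peaks came from methylated RNA immunoprecipitation sequencing (MeRIP-seq), in which poly(A) RNA is fragmented, fragments carrying N6-methyladenosine (m6A) are pulled down with an antibody, and both these and untreated input fragments are sequenced. There were 4 libraries, 2 immunoprecipitates and 2 inputs, all from sorted splenic NK cells of wild-type C57BL/6 mice whose NK cells had been expanded with the plasmid pLIVE-IL-15. Both groups share that treatment, so no comparison with unexpanded NK cells can be made, and the number of animals behind a library is not given in the sources used here. Mice of 6 to 10 weeks were used, and expansion lasted 1 to 2 months. Peaks were listed once for the libraries together, with 1 enrichment (immunoprecipitate over input, in fold) and 1 p-value each. No error between replicates can therefore be given, and the depth is unknown.

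Immediate early genes are transcribed within minutes of a stimulus without new protein synthesis, and their mRNAs are short-lived. The Fos and Jun proteins are basic leucine zipper (bZIP) factors that pair to form AP-1, while Batf and Atf3 are smaller bZIP proteins that also pair with Jun proteins. Egr1 is a zinc finger factor and Nr4a1 an orphan nuclear receptor, both induced by the same kinds of signals. In NK cells these factors act downstream of activating receptors and cytokines. m6A is placed on adenosines within the consensus DRACH (where D stands for any base but C, R for a purine and H for any base but G), and is known for its enrichment around stop codons and in long last exons.

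The most significant peak of each gene contained DRACH sites, which are shown because they are the candidate positions of the mark within the peaks that the results turn on. For each gene the DRACH site that begins with GGAC and lies nearest the centre of that peak is given with 10 bases on each side, 5′ to 3′ on the strand of the gene, with the DRACH site in capitals. The sequences are from GENCODE transcripts of GRCm38. The Jund peak is the one assigned to Gm11175. The Fosl2 peak held 4 DRACH sites but 0 with GGAC, so its nearest DRACH site is given, and the site of Egr1 is not shown.
Fos (chr12:85476940-85476964, plus strand): agaaaagataGGACTttattttcca
Fosb (chr7:19304674-19304698, minus strand): catgacggaaGGACCtcctttgtgt
Fosl2 (chr5:32156922-32156946, plus strand): gcctgaatagAAACAgatagcatta
Jun (chr4:95049948-95049972, minus strand): agaactgcatGGACCtaacattcga
Junb (chr8:84977829-84977853, minus strand): ggaggctccgGGACCgccgtcggga
Jund (chr8:70700124-70700148, plus strand): ggggcgccccGGACTctttcgagac
Batf (chr12:85708852-85708876, plus strand): gcagaggcctGGACAagtattgaac
Atf3 (chr1:191171121-191171145, minus strand): aggtggggtgGGACCacatcctcca
Nr4a1 (chr15:101274388-101274412, plus strand): tccagaagatGGACAgagaactcaa
All of these lie in 3' UTRs except that of Junb, which lies in the coding sequence, with its methylatable A at -444 nt from the first base of the stop codon. The data do not resolve single bases, so which of the DRACH sites in a peak carried the mark is not known.

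All 10 genes carried m6A peaks, and each had more than 1. Among protein-coding genes, 46.3% had a peak. At least 2 peaks were found in 10 of the 10 genes, against 46.7% of protein-coding genes with a peak, and at least 3 in 6 of 10, against 19.7%. A peak with a p-value under 0.001 was present in 10 of 10, against 73.3%, and a peak enriched at least 2-fold in 8 of 10, against 75.5%, the exceptions being Fos and Egr1. Fold enrichments were modest. Of the 29 peaks, 24 had a p-value under 0.001 (82.8%, against 61.5% of all distinct peaks), 10 were enriched at least 2-fold (34.5%, against 63.9%) and 3 at least 5-fold (10.3%, against 34.6%). The 29 peaks had a median of 1.77 (interquartile range 1.48 to 2.36), against 2.66 (1.73 to 9.48) over all distinct peaks, and ranged from 1.07 to 7.59. The median log10 p of the 29 peaks was -10.7, against -4.10 over all peaks. A peak p-value depends on the number of reads as well as on the enrichment, and no expression level was analysed here.

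By significance several of these genes stood near the top of the list, whereas by fold enrichment none did. Among 10174 protein-coding genes with a peak, ordered by their most significant one, Jun ranked 42, Junb 46, Jund 213, Fosb 246 and Nr4a1 344. Fos ranked 746, Atf3 1034, Egr1 1512, Batf 2360 and Fosl2 3928. The 6 genes Jun, Junb, Jund, Fosb, Nr4a1 and Fos were in the top 10% by significance, which Atf3 missed narrowly. Ordered by the highest fold enrichment, 0 of the 10 were in the top 10%. The best placed of the 10 was Batf at 3494, and Fos was the last at 9621. A fold enrichment of at least 5, called strong here, was reached in 3 of the 10 genes (Jun, Junb and Batf), against 43.4% of protein-coding genes with a peak.

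**Figure D1:**
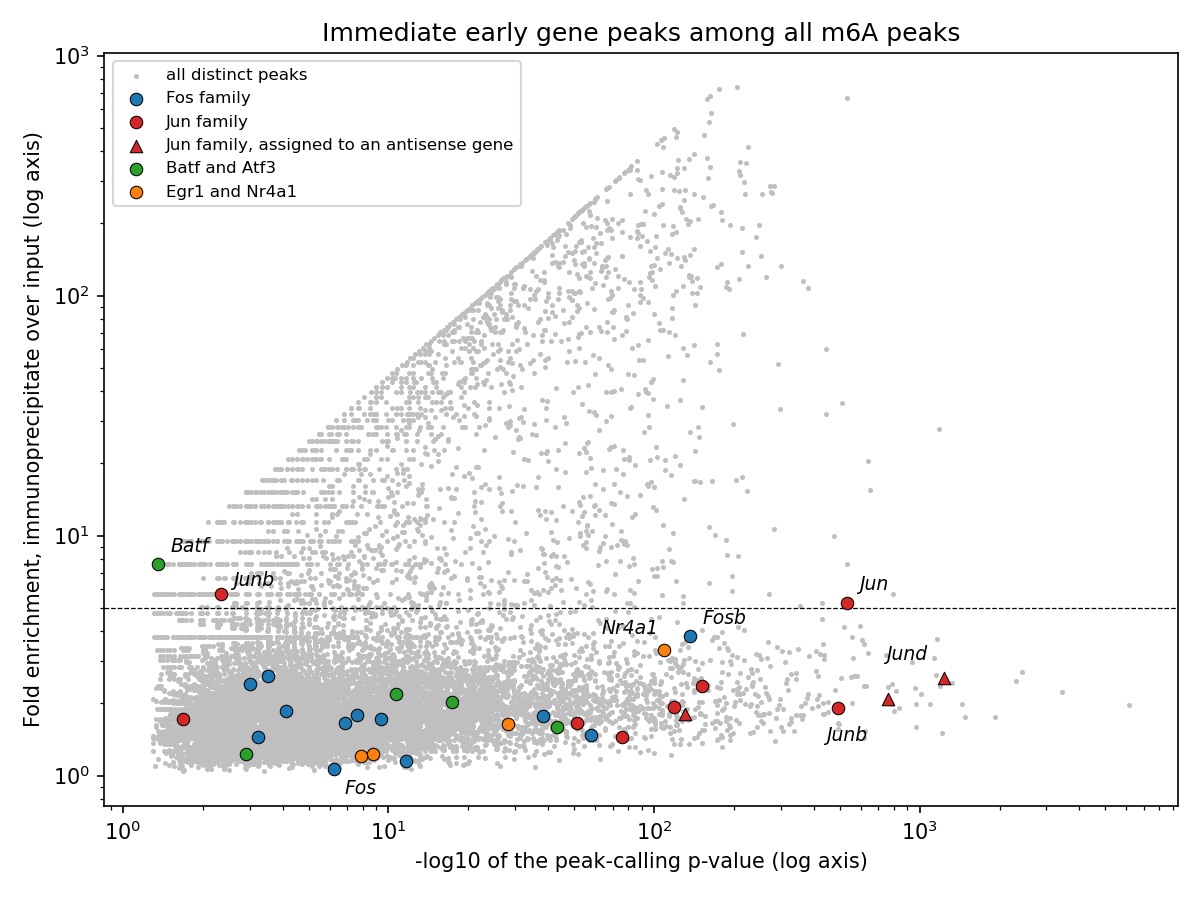
Fold enrichment against -log10 of the peak-calling p-value for all 20727 distinct peaks (grey) and for the peaks of the 10 genes, coloured by family, both axes on a log scale, with triangles for the 3 peaks assigned to antisense genes and a dashed line at a fold enrichment of 5. The peaks of the 10 genes lie mostly in the lower part of the cloud, and of the 3 above the dashed line, those of Batf and Junb lie on rows of equal fold enrichment at the left, and that of Jun lies far to the right.

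Only 1 of these 3 strong peaks was both highly significant and on a coding transcript. The strong peak of Jun had a log10 p of -531. That of Junb (chr8:84976398-84976542) was enriched 5.69-fold (log10 p -2.34), and that of Batf (chr12:85689531-85689770) 7.59-fold (log10 p -1.36). Both lay outside every protein-coding isoform, in a processed transcript of Junb downstream of the gene's coding transcript and in a retained-intron transcript of Batf. The fold enrichment of the Junb peak was carried, to the digits of the list, by 560 distinct peaks in all and that of the Batf peak by 395, whereas that of the Jun peak was carried by 3. Equal values were thus common at these fold enrichments, and the reads behind them are not known. A strong peak with a p-value under 0.001 was found in 1 of 10 genes, against 25.7% of protein-coding genes with a peak.

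Positions on the coding transcript are described next. The longest protein-coding transcript of each gene was used, and a peak was placed by the centre of its exonic part. Of all 32 peaks, 28 could be placed. The other 4 were the strong peaks of Junb and Batf just described, a second Junb peak on the same processed transcript, and a Fosb peak on a retained-intron transcript.

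**Figure D2:**
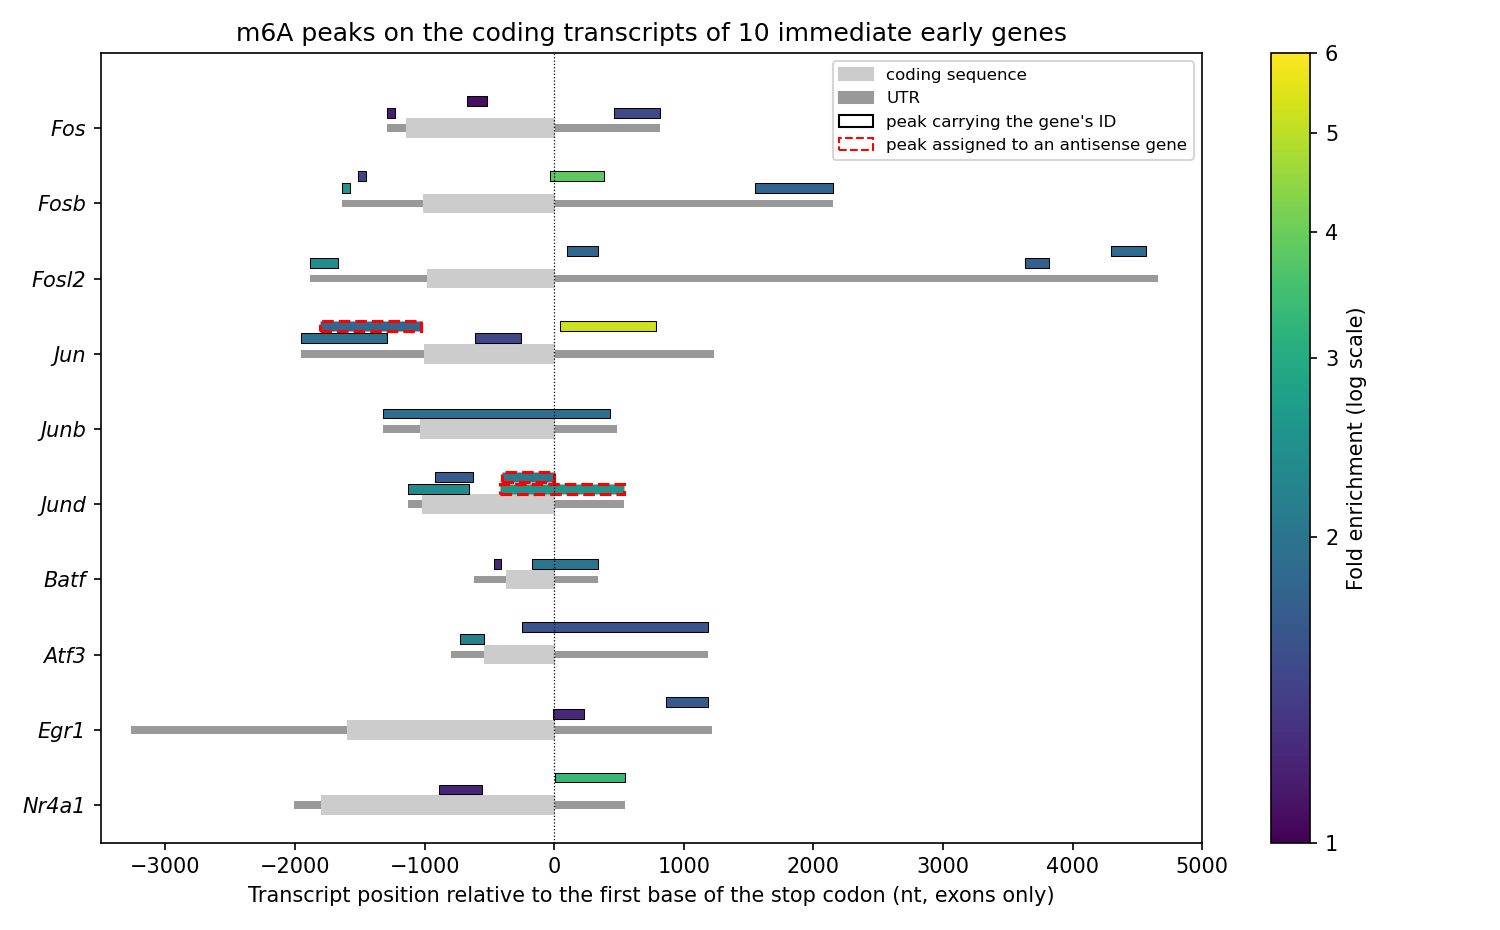
Coding transcripts of the 10 genes drawn to scale without introns, with positions in nt relative to the first base of the stop codon, and bars for the 28 placed peaks, coloured by fold enrichment on a log scale, with red dashed outlines for the 3 peaks assigned to antisense genes. Each transcript has a peak at or after the stop codon, Junb is covered almost from end to end, and the peak with the highest fold enrichment lies in the 3' UTR of Jun.

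Peaks of these genes were found at the 5' end of the transcript as well as in the 3' UTR. Of the 25 placed peaks that carried the gene's own identifier, 12 were centred in the 3' UTR (48.0%, against 56.5% of 15715 placed peaks of the whole list), 6 in the coding sequence (24.0%, against 33.6%) and 7 in the 5' UTR (28.0%, against 9.95%). Several of these 7 were weak in significance. Their log10 p values were -2.92 in Batf, -3.0 in Fosl2, -3.24 and -3.52 in Fosb, -10.7 in Atf3, -11.6 in Fos and -119 in Jun. Peaks whose exonic part began within 10 nt of the transcript start were found in 6 of the 10 genes, namely Fos, Fosb, Fosl2, Jun, Junb and Jund, against 23.9% of protein-coding genes with a placed peak. They made up 6 of the 25 peaks (24.0%, against 15.1%). That of Jun was not bounded by the transcript start, since 855 of its 1514 nt lay upstream of it. That of Junb covered 96.7% of its transcript, was centred in the coding sequence and so marks no position at the 5' end. Antibodies against m6A also bind the related base m6Am beside the mRNA cap, and the marks cannot be told apart in these data. At the other end, 5 of the 25 peaks (20.0%, against 23.4%) ended within 10 nt of the transcript end, in 5 of the 10 genes (Fos, Fosb, Batf, Atf3 and Nr4a1), against 37.0%. Peaks centred within 200 nt of the stop codon were 3 of the 25 (12.0%, against 22.3%), in Fosb, Batf and Egr1. With the peaks assigned elsewhere there were 4 of 28, the fourth on Jund. The first base of the stop codon was inside 5 of the 25 peaks (20.0%, against 20.2%), in Fosb, Junb, Batf, Atf3 and Egr1. The last exon held the centre of 18 (72.0%, against 66.7%), and an exon of at least 400 nt that of 21 (84.0%, against 68.7%).

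Within genes the most significant peak was usually the one in the 3' UTR. Among peaks with the gene's own identifier, it was centred there in 8 of the 10 genes, against 60.7% of protein-coding genes with a placed peak. With the peaks assigned to antisense genes it was 9 of 10, Jund being added. The counts that follow leave those peaks out. In the 7 genes with peaks both in and outside the 3' UTR, the 3' UTR peak was the more significant in all 7 (Fos, Fosb, Fosl2, Jun, Batf, Atf3 and Nr4a1), against 64.5% of 2210 such genes. The highest fold enrichment was in the 3' UTR in 5 of these 7 genes, against 42.7%. The exceptions were Fosl2 and Atf3, where the peak at the 5' end had the higher value. Since the values have no error, these are orders within 1 list and not tests.

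**Figure D3:**
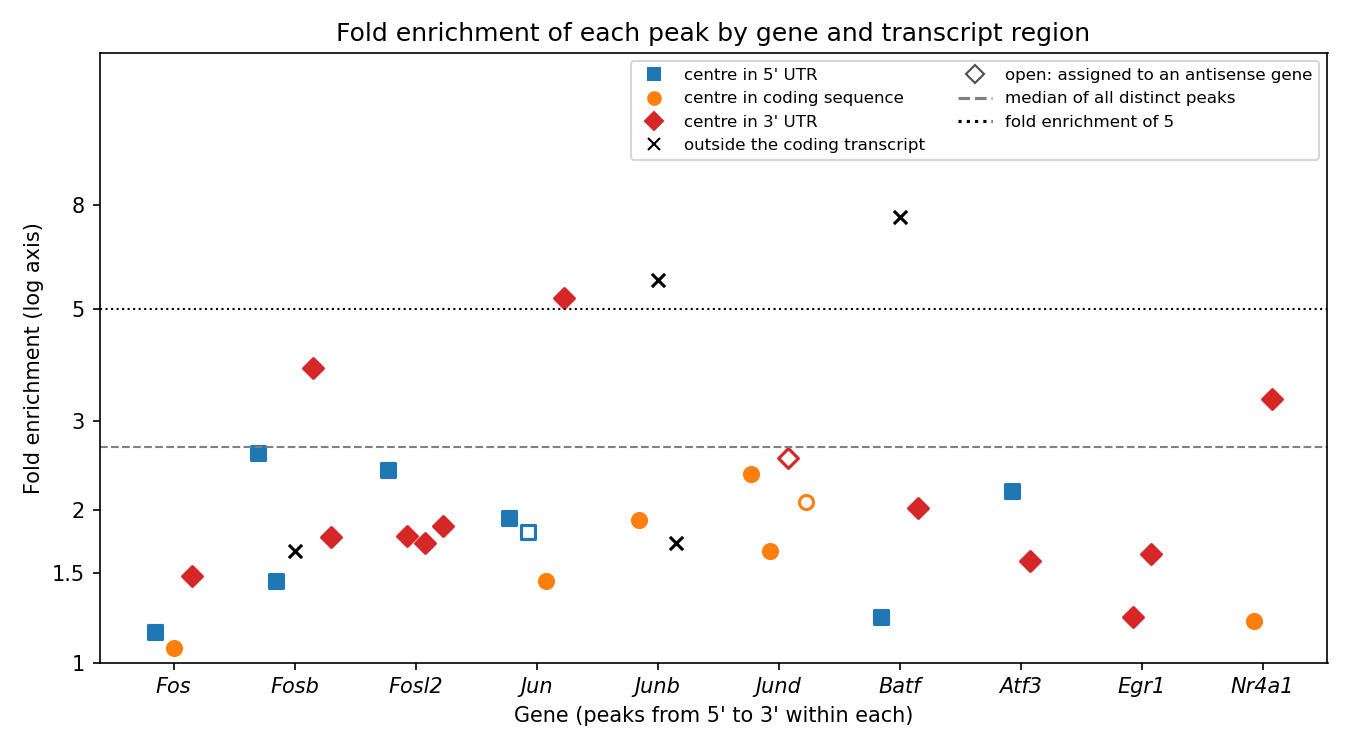
Fold enrichment of each of the 32 peaks by gene on a log axis, with peaks in order from 5' to 3' and symbols for the region of the peak centre, where open symbols are assigned to antisense genes, crosses lie outside the coding transcript, the dashed line is the median of all distinct peaks (2.66) and the dotted line a fold enrichment of 5. Most peaks lie below the median of all peaks, and above it lie the 3' UTR peaks of Jun, Fosb and Nr4a1 and a peak each of Junb and Batf outside the coding transcript.

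Among the Fos family, Fosb had the most marked 3' UTR peak. Fos (ENSMUSG00000021250, chromosome 12, plus strand, 4 exons), the prototype of the family and a gene the study listed for the IL-15 receptor pathway, had 3 peaks, and its highest enrichment, 1.48-fold, was below the highest of each of the other genes. The peak over the first 61 nt of the transcript (chr12:85473890-85473950) was enriched 1.15-fold (log10 p -11.6). The peak in the coding sequence, across the junction of exons 3 and 4 (chr12:85475668-85475934), was enriched 1.07-fold (log10 p -6.26). The third ended on the last base of the transcript (chr12:85476916-85477273) and was enriched 1.48-fold (log10 p -58.0). It began 460 nt after the stop codon, so the stop codon region of Fos held no peak.

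Fosb (ENSMUSG00000003545, chromosome 7, minus strand), the closest relative of Fos and known for a truncated splice form, had 5 peaks. The strongest (chr7:19304458-19304876) was enriched 3.81-fold (log10 p -137) and ran from -33 to 385 nt relative to the first base of the stop codon. It held 17 DRACH sites in 419 nt, or 40.6 per kb, the highest density of the 28 placed peaks. A second 3' UTR peak covered the last 598 nt of the transcript (chr7:19302696-19303293) and was enriched 1.77-fold (log10 p -38.1). The remaining 3 peaks were weaker in significance. The pair in the 5' UTR, each of 61 nt, were enriched 2.60-fold and 1.45-fold (log10 p -3.52 and -3.24), and the peak on the retained intron 1.66-fold (log10 p -6.88). In significance both 3' UTR peaks of Fosb stood apart from its other peaks, whereas in enrichment the 5' end and the 3' UTR overlapped.

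Fosl2 (ENSMUSG00000029135, chromosome 5, plus strand), which encodes the Fos-related protein FRA2, has the longest 3' UTR of the 10 genes (4653 nt) and had 4 peaks. The peak over the first 211 nt of the transcript had the highest enrichment, 2.40-fold, with a p-value at 0.001 and not under it. The 3 peaks in the 3' UTR began 100, 3636 and 4295 nt after the stop codon. Their fold enrichments were 1.78, 1.72 and 1.86 and their log10 p values -7.58, -9.37 and -4.11. The 3 values lay close together, and 14.9% of the 3' UTR lay in a peak.

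The Jun family held the most significant peaks of the set. Jun, Junb and Jund are encoded by genes without introns, and a single exon is found in 6.77% of protein-coding transcripts. Jun (ENSMUSG00000052684, chromosome 4, minus strand), the main transactivating partner in AP-1, had a 3' UTR peak (chr4:95049481-95050226) that was enriched 5.24-fold (log10 p -531) and ranked 49 of all 20727 peaks by significance. It began 43 nt after the stop codon and held 20 DRACH sites in 746 nt. The coding-sequence peak (chr4:95050524-95050881) was enriched 1.45-fold (log10 p -75.9) and held 1 DRACH site in 358 nt. These neighbouring peaks of 1 exon therefore differed in fold enrichment from 1.45 to 5.24 and in DRACH density from 2.79 to 26.8 per kb. The overlapping peaks at the 5' end of that exon held 25.8 (assigned to Jun) and 20.6 per kb (assigned to Junos). They were enriched only 1.93-fold and 1.81-fold, so a high density did not always go with a high enrichment.

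Junb (ENSMUSG00000052837, chromosome 8, minus strand), a family member with weaker transactivation than Jun, had a peak over 96.7% of its coding transcript (chr8:84976969-84978718), enriched 1.91-fold (log10 p -494). A peak of such extent gives no position within the transcript. It spanned the stop codon and left 59 nt at the 3' end outside.

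Jund (ENSMUSG00000071076, chromosome 8, plus strand), the family member expressed most constantly in many cell types, had 2 peaks of its own and 2 that were assigned to Gm11175. Its own peaks lay at the 5' end. The first (chr8:70698949-70699425) was enriched 2.36-fold (log10 p -151), and the second (chr8:70699162-70699453) 1.66-fold (log10 p -51.4). Those assigned to Gm11175 were far more significant. The longer (chr8:70699663-70700616) was enriched 2.54-fold with a log10 p of -1240, which ranked 9 of all 20727 peaks, and ran from -418 nt relative to the stop codon to the last base of Jund. The shorter (chr8:70699681-70700080) lay within it and was enriched 2.08-fold (log10 p -762). Counted by identifier alone, Jund would thus have lacked any peak at its stop codon or in its 3' UTR.

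The borders of the Jund peaks were compared with those of both genes. Gm11175 (ENSMUSG00000080058) is an antisense gene on the minus strand whose whole extent, 70699162 to 70700080, lies inside Jund. The first peak assigned to Jund began on the first base of Jund. The longest peak assigned to Gm11175 ended on the last base of Jund, and 43.8% of its bases were exonic in Gm11175 against 100% in Jund. The shorter peak assigned to Gm11175 ended on the border of a Gm11175 exon. The second peak assigned to Jund began on the border of Gm11175 at its lower coordinate and lay wholly in its exons. Of the 4 peaks, 2 thus met a border of the gene they were assigned to, and 2 met a border of the other gene. Whether reads were counted by strand is not given in the sources used here, so signal from Jund and Gm11175 cannot be told apart where the genes overlap. Outside that overlap lay the part of the longest peak from the end of Gm11175 (70700080) to 70700616. The start of the first Jund peak, from 70698949 to the lower border of Gm11175 (70699162), lay outside it too. Each peak has 1 value, so the share of these parts in it is not known.

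At the 5' end of Jun, peaks assigned to Jun and to an antisense gene also overlapped, and neither met an exon border of either gene. The peak assigned to Junos (ENSMUSG00000087366), an antisense gene that starts inside Jun and runs away from it, lay at chr4:95051298-95052073 and was enriched 1.81-fold (log10 p -131). All of its bases were exonic in Jun, and 29.9% were exonic in Junos. The peak assigned to Jun (chr4:95051564-95053077) was enriched 1.93-fold (log10 p -119), but most of its bases lay beyond the annotated 5' end of Jun. Of its bases, 43.5% were exonic in Jun and 21.7% in Junos. The 2 peaks shared 510 nt, and their reads cannot be assigned to a strand here. Both were placed in the 5' UTR of Jun by the centre of their exonic part, which for the peak assigned to Jun leaves out the bases upstream.

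The leading peaks of Batf and Atf3 were less significant than those of the Jun family. Batf (ENSMUSG00000034266, chromosome 12, plus strand), a partner of Jun proteins and of IRF factors in lymphocytes, had a peak over the last 509 nt of its transcript (chr12:85708579-85709087), enriched 2.02-fold (log10 p -17.4). It spanned the stop codon and covered the whole 3' UTR of 335 nt. The peak in the 5' UTR, of 61 nt, was enriched 1.23-fold (log10 p -2.92) and was the only placed peak with 0 DRACH sites. Atf3 (ENSMUSG00000026628, chromosome 1, minus strand), a stress-induced bZIP repressor, had 2 peaks. The one that covered its whole 3' UTR and the stop codon (chr1:191170296-191172426) was enriched 1.59-fold (log10 p -43.1), and the one in the 5' part of the transcript (chr1:191177473-191183271) 2.18-fold (log10 p -10.7). The exonic part of the latter was 181 nt of a span of 5799 nt.

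Egr1 and Nr4a1 had 2 peaks each. Egr1 (ENSMUSG00000038418, chromosome 18, plus strand) had both of its peaks in the last exon. The peak across the stop codon (34863759 to 34863998) was enriched 1.23-fold (log10 p -8.77), and the distal peak (34864625 to 34864954), which ended 30 nt before the transcript end, 1.64-fold (log10 p -28.1). Nr4a1 (ENSMUSG00000023034, chromosome 15, plus strand), a gene used as a reporter of antigen receptor signalling, had a peak over 98.9% of its 3' UTR (chr15:101274256-101274792), enriched 3.32-fold (log10 p -109). Its coding-sequence peak (chr15:101271766-101272794), with 329 exonic nt over several short exons, was enriched 1.21-fold (log10 p -7.89). The 3' UTR peak of Nr4a1 was thus the third highest in fold enrichment among the placed peaks, after those of Jun and Fosb.

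The sequence of the peaks was examined with features that did not enter the choice of genes. On the 10 transcripts, bases inside a peak (11473 nt, the 3 peaks assigned elsewhere included) held 231 DRACH sites, or 20.1 per kb, and the other 17596 nt held 306, or 17.4 per kb. The density was higher inside the peaks in 8 of the 10 genes, the exceptions being Fos (17.6 against 20.1 per kb) and Junb (16.6 against 16.9 per kb). For Junb the outside value rests on 1 site in 59 nt. Among the 8, those of Jund and Atf3 rest on 2 sites in 209 nt and 5 in 367 nt. In Jun the densities were close (22.2 against 21.6 per kb). Summed peak by peak, as was done for all placed peaks, the density was 19.6 per kb, close to the 20.2 per kb of all placed peaks. The shorter motif GGAC was found 72 times inside, or 6.28 per kb, and 74 times outside, or 4.21 per kb. Summed peak by peak its density was 6.17 per kb, against 4.03 per kb in all placed peaks. The transcripts of Junb and Jund contain 62.6% and 67.2% G and C, against a median of 49.1% over coding transcripts, and the part of base composition in the GGAC density was not tested.

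**Figure D4:**
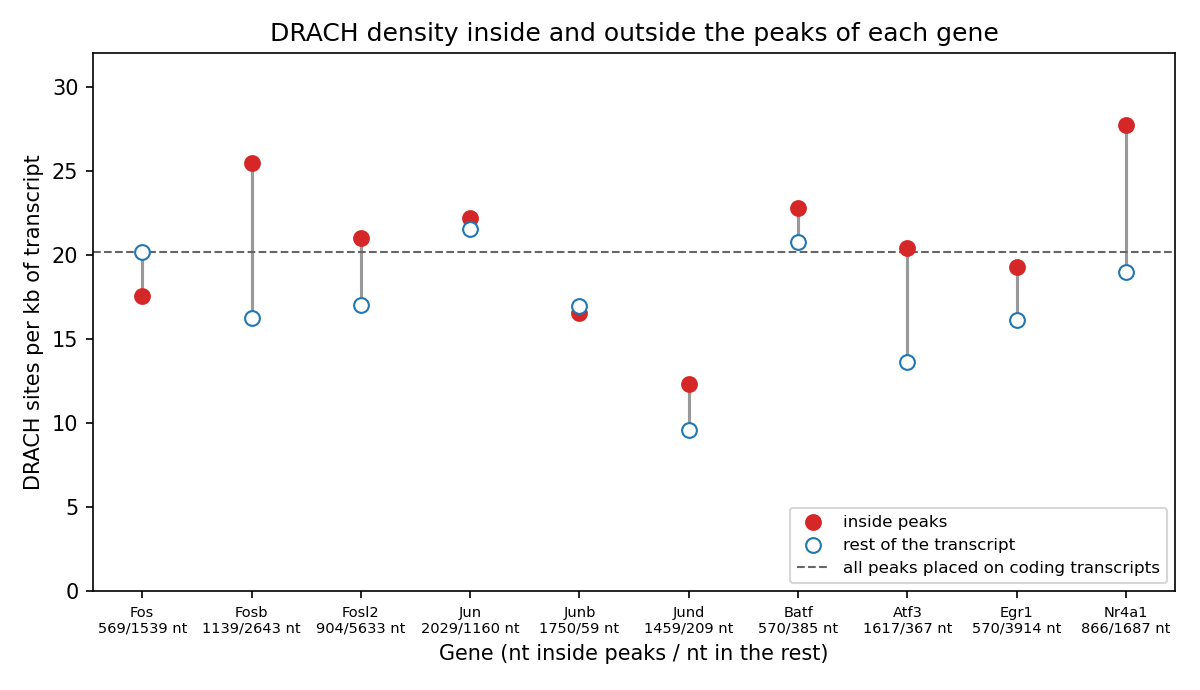
DRACH sites per kb inside the peaks (filled) and in the rest of the coding transcript (open) for each gene, with the number of nt in each part under the gene name and a dashed line at the density in all placed peaks (20.2 per kb). The widest gaps are those of Fosb and Nr4a1, and Fos and Junb have the higher value outside the peaks.

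Immediate early mRNAs are also known for AU-rich elements in the 3' UTR, built around the pentamer ATTTA, which recruit RNA decay factors. The pentamer was found on the transcript strand in the 3' UTR of 9 of the 10 genes, all but Batf, against 65.9% of 3' UTRs of at least 50 nt, and at least 3 times in 5 of them, against 36.1%. The density was highest in Nr4a1 (5.52 per kb) and Fos (4.91 per kb), against a median of 1.27 per kb. Of 28 pentamers in these 3' UTRs, 17 (60.7%) lay in a peak, while 48.3% of the 3' UTR bases did. In a peak lay 4 of 4 in Fos, 2 of 2 in Egr1, 1 of 2 in Junb, 1 of 4 in Jun, 2 of 8 in Fosl2 and 0 of 1 in Fosb. The share of the 3' UTR in a peak was 43.9% in Fos, 46.1% in Egr1, 87.8% in Junb, 60.5% in Jun, 14.9% in Fosl2 and 45.7% in Fosb. In Atf3 (3 of 3), Jund (1 of 1) and Nr4a1 (3 of 3) peaks covered 100%, 100% and 98.9% of the 3' UTR, so nearly any site would lie in one. The longer element TTATTTA followed by A or T at 2 positions was found in Fos and Fosl2, against 16.4% of 3' UTRs. It is a special case of the pentamer. The 30 bases with the most pentamers in each of these 3' UTRs, shown with the pentamers in capitals because both stretches lay wholly inside a peak, were as follows.
Fos (chr12:85477090-85477119, plus strand): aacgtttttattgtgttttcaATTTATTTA
Fosl2 (chr5:32156858-32156887, plus strand): agaagaaattgacATTTAttttattATTTA
Neither stretch holds the longer element in full, since both end on TTATTTA. A match of letters is a description and not evidence of a working element.

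Genes that work with these factors were compared by the same counts. Of 18 other bZIP genes (further AP-1, ATF, CREB and MAF factors), 15 had a peak (83.3%, against 46.3% of all protein-coding genes). At least 2 were found in 7 (38.9%, against 21.6%), and one with a p-value under 0.001 in 10 (55.6%, against 34.0%). Among genes with a peak, the base used above for the 10 genes, these were 7 of 15, against 46.7%, and 10 of 15, against 73.3%. On that base neither share was higher than that of protein-coding genes. Among the most significant were those in Atf4 (1.85-fold, log10 p -129, the values for the other genes being given in the same order), a translationally induced stress factor, and in the MAF factors Maf (1.76, -32.3) and Maff (3.64, -26.7). Another peak of Maf was less significant but more enriched (13.3, -4.74). Fosl1, the remaining Fos family gene, had 1 peak (5.69, -2.31). No peak was listed for Atf1, Atf7 and Mafg.

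Of 40 other immediate early genes, 35 had a peak (87.5%, against 46.3% of all protein-coding genes). At least 2 were found in 25 (62.5%, against 21.6%), and one with a p-value under 0.001 in 34 (85.0%, against 34.0%). Among genes with a peak these were 25 of 35, against 46.7%, and 34 of 35, against 73.3%. The most significant were in Klf2, a quiescence and trafficking factor (2.37, -630), the MAP kinase phosphatase gene Dusp1 (3.29, -304), Rgs1, a regulator of G protein signalling (1.39, -285) and Ier2 (2.21, -265). The fold enrichments of these peaks lay in the range of the 10 genes. Another peak of Rgs1 was less significant but more enriched (8.53, -2.75). A fold enrichment of at least 5 with a p-value under 0.001 was found in 3 of the 35 genes with a peak, against 25.7% of protein-coding genes with a peak. These were Egr3 (15.2), Csrnp1 (24.7, in a peak outside its coding transcript) and Ier3 (5.92), named once their values were known.

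Of 16 upstream kinase and serum response genes, 13 had a peak (81.2%, against 46.3% of all protein-coding genes). A peak with a p-value under 0.001 was found in 12 of the 16, against 34.0%. Among genes with a peak this was 12 of 13, against 73.3%. The most significant were in the p38 kinase gene Mapk14 (2.20, -43.0), in Rps6ka1 (2.03, -34.7), and in Map2k2 (1.74, -25.7) and Mapk3 (1.76, -23.3), which encode MEK2 and ERK1. Less significant but more enriched peaks were listed for Mapk3 (53.1, -11.7), Map2k2 (23.4, -13.7) and, outside its coding transcript, Rps6ka1 (11.4, -3.31). A fold enrichment of at least 5 was found in 5 of the 16 genes (31.2%, against 20.1% of all protein-coding genes). Among genes with a peak this was 5 of 13, against 43.4%. All 5 had such a peak with a p-value under 0.001, which 25.7% of protein-coding genes with a peak had. Of 10 partners and regulators, 9 had a peak with a p-value under 0.001 (90.0%, against 34.0% of all protein-coding genes). Among genes with a peak this was 9 of 9, against 73.3%. The most significant were in Irf8 (2.43, -140), Nfatc1 (1.96, -17.9), Cops5 (log10 p -14.2) and Nfatc3 (log10 p -10.6). A fold enrichment of at least 5 was found in 0 of the 10. The lists were not tested, since a peak also requires that the RNA is present.

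**Figure D5:**
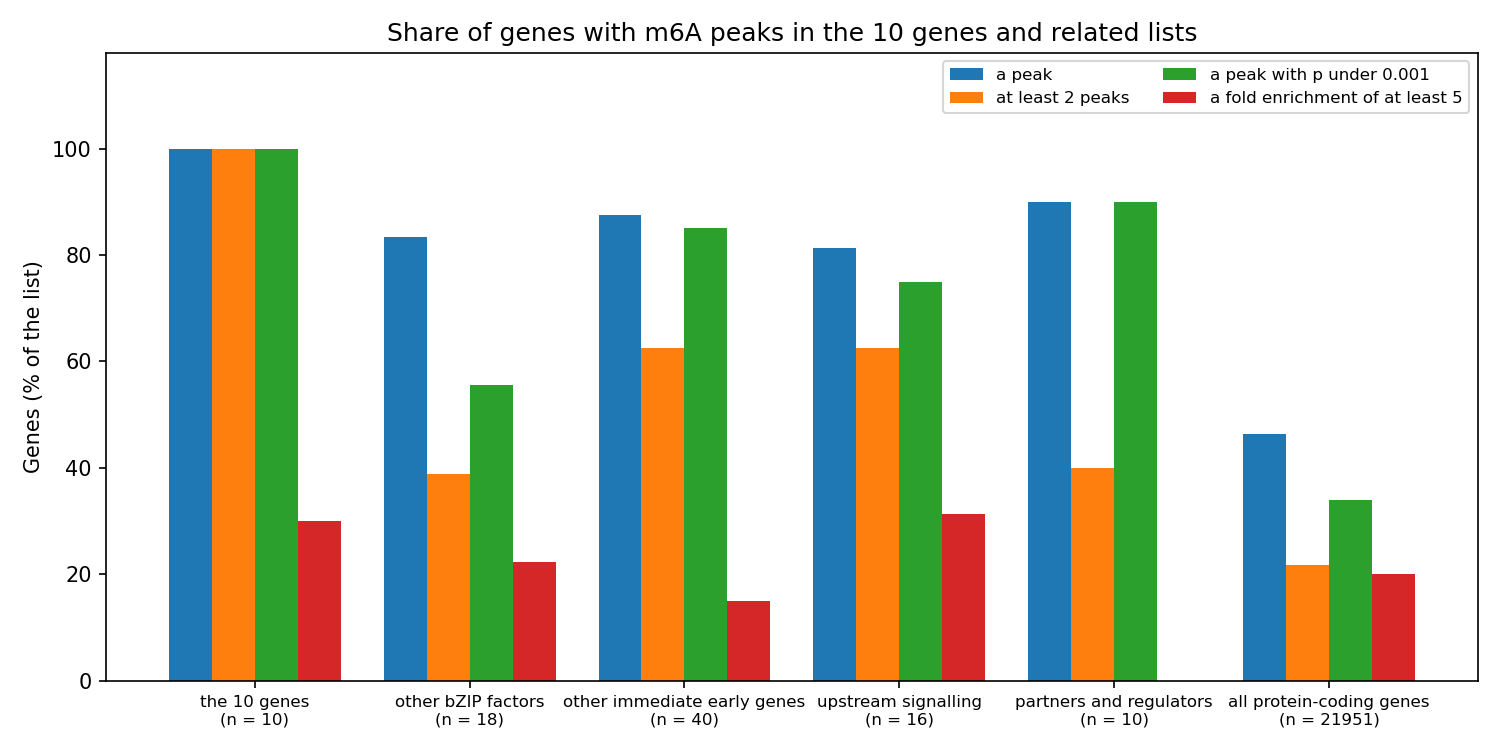
Share of genes with a peak, with at least 2 peaks, with a peak of p under 0.001 and with a fold enrichment of at least 5, in % of each list, for the 10 genes, 4 related lists and all 21951 protein-coding genes. The 10 genes are at 100% for the first 3 shares and 30% for the last, and each list has a higher share with any peak than the 46.3% of all protein-coding genes.

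The label of the cells was checked against markers. All 12 NK cell markers had a peak with a p-value under 0.001, against 34.0% of all protein-coding genes. Peaks were also listed for 5 of 5 myeloid markers, such as Csf1r (log10 p -322) and S100a8 (-306), for 2 of 3 erythroid markers (Hbb-bs -2440, Hba-a1 -788), for 3 of 5 B cell markers and for 3 of 5 T cell markers. Any peak was listed for 46.3% of all protein-coding genes. Among markers with a peak, the median log10 p of the most significant one was -73.5 for NK cells. It was -143 for myeloid, -1610 for erythroid, -17.1 for B cell and -9.43 for T cell markers. The markers without a listed peak included Ms4a1, Cd4, Cd8a and Alas2. A peak shows that fragments of a transcript were sequenced and not how abundant it was. Immediate early genes are active in many cell types, and the part of other cells in the peaks of the 10 genes was not tested.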

How the data were processed

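Per the labels, 2 m6A immunoprecipitates and 2 inputs were sequenced. The authors trimmed reads, aligned them with HISAT2 to GRCm38, called peaks with exomePeak and annotated them with ChIPseeker. The deposited list names no sample and has 0 columns with a value per sample. Its fold enrichment is a ratio made by the authors, and its significance is a deposited score, the log10 of the unadjusted peak p-value, with -1.30 as its weakest value. Depth and the way replicates were combined are not given in the sources used here.

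Of 20751 rows, 24 repeated another and were dropped. Symbols were matched to identifiers in GENCODE M21, and all listed symbols were found. Peaks were placed on the longest protein-coding transcript, and 15715 could be placed. Motifs were searched on the transcript strand. Placement and motif search were tested on simulated data. No test was run, since the list holds no value per replicate. Genes named from other lists are up to 4 per list with the most significant peaks, some genes not being reported here, and any further gene was picked with its values in view. The 10 genes and all lists were chosen with earlier results of these data known. Analyses used Python 3.11.15, pandas 2.3.3 and numpy 2.4.6.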

Additional observations from a re-analysis of the deposited data

How the results depend on the processing

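Of 23 alternative values for 8 results, 13 stayed within the limits set for them and 10 moved. The 29 peaks of the 10 genes fell to 10 when an enrichment of 2-fold was required and to 3 when 5-fold was required. The number of genes with a strong peak, 3 at 5-fold, was 5 at 3-fold and 0 at 10-fold. It was 1 when a p-value under 0.001 was also required and 1 when the peak had to touch a coding isoform, both alternatives chosen after seeing the data. The 3 peaks centred within 200 nt of the stop codon became 1 within 100 nt, 5 within 400 nt and 8 when any base of the peak counted. With the peaks assigned to antisense genes, also added after seeing the data, they were 4. The motif density of 20.1 per kb was 6.28 per kb for GGAC, a motif that is rarer by construction.

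No paired analysis was possible because values exist only for the pooled libraries, although both groups are numbered 1 and 2. Leaving out a replicate was not run for the same reason. Without the depth, no interval for the enrichment of a single peak was computed.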

Other observations

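The closest relatives of Egr1 and Nr4a1 also carried peaks, which were looked up after the values of the lists had been seen. Egr2 had 1 peak, enriched 2.37-fold (log10 p -3.33), and Egr3 had 4, of which the most significant was enriched 15.2-fold (log10 p -10.8). Nr4a2 had 2 peaks, the more significant enriched 1.92-fold (log10 p -4.57), and Nr4a3 had 1, enriched 2.21-fold (log10 p -3.48). Each of these lay in the 3' UTR. By significance all 4 were weaker than the leading peaks of Egr1 (-28.1) and Nr4a1 (-109).

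The genes of the ZFP36 family, whose proteins bind AU-rich elements and promote decay of the mRNA, were looked up in the same way. Zfp36 had 6 peaks, and the most significant lay in the 3' UTR (1.70-fold, log10 p -98.3). Another was less significant but more enriched (13.3-fold, log10 p -2.5). Zfp36l2 had 3 peaks, the most significant in the coding sequence (3.14-fold, log10 p -95.8), and Zfp36l1 had 2 (1.16-fold, log10 p -3.76 for the more significant).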
